A study of Mus musculus with 18 samples.

Results

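The sites described here are the meiotic recombination hotspots nearest the centromere-side (proximal) ends of the mouse autosomes. They were taken from a list of 9132 DMC1 sites common to 3 genotypes, of which 8744 are autosomal. A site counted as proximal when its end lay within 10 Mb of the smallest start listed for its chromosome, and 659 of the 8744 autosomal sites met that rule. They were compared with 6145 interior sites, which lie more than 20 Mb from both the first listed start and the last listed end of their chromosome. Within that list only position was used to choose the sites, and no measured value. Membership of the list itself rests on the authors' DMC1 sites and was taken as given.

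DMC1 is a recombinase that assembles on the resected DNA ends of meiotic breaks, so DMC1 ChIP-seq maps where breaks are being repaired. In the mouse most breaks form at sites chosen by PRDM9, a zinc-finger protein that binds DNA and deposits H3K4me3 and H3K36me3 on the flanking nucleosomes. EWSR1 is an RNA-binding protein of the FET family. Mouse autosomes are acrocentric, with the centromere and its satellite repeats close to the start of the chromosome sequence, so the first listed hotspots are also those nearest the centromere.

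All samples were spermatocytes of 14-day-old mice. DMC1 was measured in C57BL/6J mice (B6), in mice labelled Ewsr1-CKO with Stra8-iCre (Ewsr1 CKO), in which the Cre is driven by a promoter active in male germ cells entering meiosis, and in Prdm9+/- mice (Prdm9 het). H3K4me3 and H3K36me3 were used from Ewsr1 CKO alone, so no histone value of a control was set against them. The strain background of the Ewsr1 CKO and Prdm9 het mice is not given in the sources used here, and the files hold no expression values with which to check the labelled cell type. The series held 18 samples, and each of the 5 groups used had 2 of them, but the authors' tables give 1 value per group in RPM (reads scaled to library size). No value therefore has a replicate error, no difference could be set against the variation between animals, and every comparison is a description without a test.

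The proximal sites had a median width of 2547 bp (2519 bp in the interior), and no genome was used from which to read their sequence. DNA sequence was read only where a site held the whole 250 bases before a RefSeq gene start (assembly GRCm38.p6, the build named mm10). That was so for 14 of 659 proximal sites (2.12%, Wilson 95% interval 1.27 to 3.53%) and for 73 of 6145 interior sites (1.19%, 0.946 to 1.49%). These 14 sites had 11.6 to 194 RPM of DMC1 in B6, with a median of 51.4 RPM, and 6 of them overlapped a listed H3K4me3 site. The following 3 windows are shown because they span what the proximal sites differed in: a strong site in all genotypes, a site with high DMC1 and low H3K4me3, and a chromosome 14 site with almost no DMC1 in Prdm9 het. Each is printed 5′ to 3′ on the strand of its gene, and capitals mark matches to GNTGCTNCT, letters searched on both strands as a candidate motif of the B6 PRDM9.
Gm40260: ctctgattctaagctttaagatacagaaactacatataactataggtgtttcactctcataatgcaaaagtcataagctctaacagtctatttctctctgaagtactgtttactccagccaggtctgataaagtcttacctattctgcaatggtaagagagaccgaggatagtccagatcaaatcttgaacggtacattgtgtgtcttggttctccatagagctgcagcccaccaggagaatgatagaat
Spata48: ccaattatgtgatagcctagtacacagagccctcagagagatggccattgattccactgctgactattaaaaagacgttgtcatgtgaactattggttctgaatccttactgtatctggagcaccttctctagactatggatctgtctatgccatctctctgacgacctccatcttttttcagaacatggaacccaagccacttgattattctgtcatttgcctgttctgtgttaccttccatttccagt
Gm31577: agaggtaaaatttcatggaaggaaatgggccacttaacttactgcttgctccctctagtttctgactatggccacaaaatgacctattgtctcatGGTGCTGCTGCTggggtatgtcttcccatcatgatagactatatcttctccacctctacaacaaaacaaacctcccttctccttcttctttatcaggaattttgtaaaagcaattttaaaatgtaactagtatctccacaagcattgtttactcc

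The Gm40260 window (chr5:4077205-4077454, minus strand) lies in a hotspot at chr5:4076401-4079333 inside Akap9, a gene for a centrosomal scaffold protein. DMC1 there was 194 RPM (B6), 236 RPM (Ewsr1 CKO) and 60.8 RPM (Prdm9 het), with 1.32 RPM of H3K4me3. The Spata48 window (chr11:11489016-11489265, plus strand) lies in the hotspot chr11:11486402-11489492, with 179, 185 and 25.5 RPM of DMC1 in the same order and only 0.578 RPM of H3K4me3. The Gm31577 window (chr14:15321884-15322133, minus strand) lies in the hotspot chr14:15320762-15323016. DMC1 at this last site was 29.2 RPM (B6), 30.9 RPM (Ewsr1 CKO) and 0.370 RPM (Prdm9 het), with 0.831 RPM of H3K4me3. Its gene start is 6 bp from the middle of the hotspot, and the capitals there are overlapping matches. The motif occurred in 1 of the 15 proximal windows (6.67%), in 8 of 83 interior windows (9.64%) and in 1848 of all 32851 windows of the RefSeq table (5.63%). A match is a description of these letters and says nothing about binding.

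Proximal hotspots carried more DMC1 than interior hotspots in each of the 3 genotypes, and less H3K4me3 in Ewsr1 CKO. In B6 the median proximal site had 62.0 RPM of DMC1 (quartiles 28.4 and 120, range 6.17 to 1194 RPM) against 45.1 RPM in the interior, a 1.37-fold difference. In Ewsr1 CKO the medians were 67.3 RPM (quartiles 33.8 and 123) and 55.2 RPM, a 1.22-fold difference. In Prdm9 het they were 9.93 RPM (quartiles 4.45 and 20.1) and 8.72 RPM, a 1.14-fold difference. On the log2 scale that difference of 0.19 was 0.10 without chromosome 2 and 0.30 without chromosome 14. The H3K4me3 medians ran the other way, 0.752 RPM at proximal sites (quartiles 0.512 and 1.14) and 0.892 RPM in the interior, or 0.842-fold.

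The classes overlapped widely in all 4 columns, so these are shifts of broad distributions. The interior median was exceeded by 402 proximal sites (61.0%) in B6, 378 (57.4%) in Ewsr1 CKO, 363 (55.1%) in Prdm9 het and, for H3K4me3, 251 (38.1%). In a population of cells, fewer cells with a break at a site and less DMC1 per broken site cannot be told apart. The higher level went with slightly fewer listed sites per length, 3.60 per Mb of span against 3.84 in the interior. The sites within 10 Mb of the last listed end were as sparse, 3.57 per Mb, but had a lower B6 median of 42.7 RPM. Proximal sites, 7.54% of autosomal sites, held 8.58% of the summed autosomal DMC1 in B6, 8.30% in Ewsr1 CKO and 7.39% in Prdm9 het. Per Mb of span the proximal sum was 1.05-fold the interior sum in B6, 1.01-fold in Ewsr1 CKO and 0.886-fold in Prdm9 het. The higher median per site was therefore not a comparable surplus of DMC1 per length of chromosome.

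Weak hotspots were underrepresented near the proximal ends, and in B6 not there alone. The lower quartile of B6 DMC1 was 28.4 RPM at proximal sites, 28.7 RPM at 10 to 15 Mb, 29.9 RPM at 15 to 20 Mb and 23.9 RPM in the interior. Ranked by the mean of the 3 scaled DMC1 columns (called strength from here on), 130 proximal sites (19.7%) fell below the lower autosomal quartile, against 25.9% of interior sites. The 3 ranges between and above the next quartiles, in rising order, held 23.4%, 29.1% and 27.8% of the proximal sites. Without the sites below that quartile, the proximal excess shrank to a log2 difference of 0.25 in B6 (0.46 with them) and 0.13 in Ewsr1 CKO (0.28 with them). In Prdm9 het it turned to −0.05 from 0.19. Strength is the mean of the columns compared, so this limit also acts on the values themselves.

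DMC1 medians were a little lower in the first 4 Mb than in the next 4 Mb, and the higher levels went on beyond the 10 Mb limit. In the first 2 Mb (178 sites) the medians were 55.6 RPM (B6), 57.6 RPM (Ewsr1 CKO) and 7.96 RPM (Prdm9 het). The highest medians within the first 10 Mb were those between 6 and 8 Mb (143 sites), 68.4, 77.1 and 11.8 RPM. Between 15 and 20 Mb, outside the limit, B6 still had 59.7 RPM, and from 20 to 30 Mb it had 48.0 RPM. The 65 sites from 9 to 10 Mb had DMC1 medians of 62.6 RPM (B6), 68.5 RPM (Ewsr1 CKO) and 9.93 RPM (Prdm9 het) and a median H3K4me3 of 0.822 RPM. The 64 sites from 10 to 11 Mb were higher, with 76.1, 92.2 and 13.3 RPM of DMC1 and 0.846 RPM of H3K4me3. The last site inside the limit was a strong one, chr11:13430844-13433662, with 584 RPM (B6), 713 RPM (Ewsr1 CKO) and 93.5 RPM (Prdm9 het). The first outside was chr1:13128445-13130705, with 40.8, 43.7 and 7.65 RPM. The very first listed sites of the 19 autosomes had a B6 median of 29.96 RPM and a range from 7.59 to 394 RPM, and 6 of them were at or above the autosomal median.

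**Figure D1:**
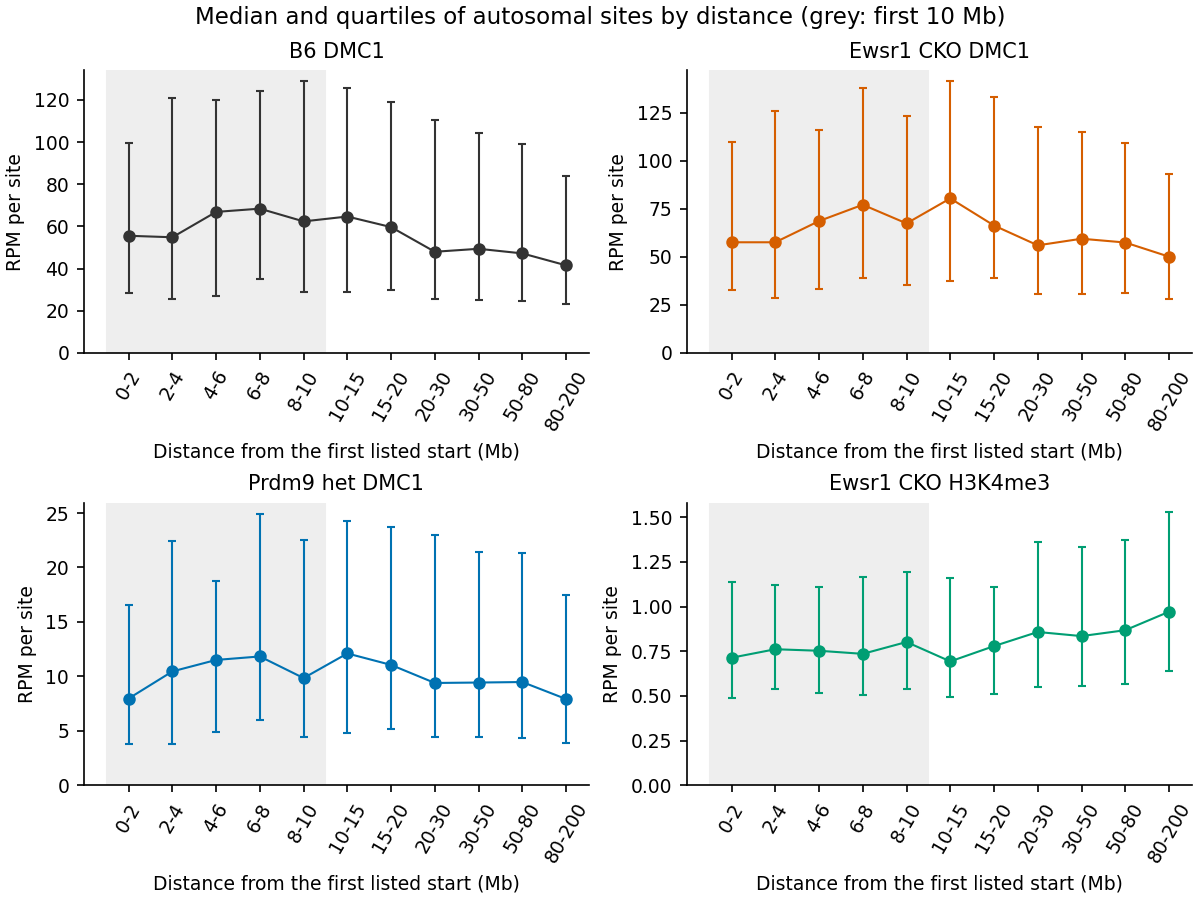
Median (points) and quartiles (bars) of the value per site, in RPM, for autosomal sites grouped by distance from the first listed start of their chromosome, with the first 10 Mb in grey. The B6 median is 68.4 RPM at 6 to 8 Mb and 41.5 RPM at 80 to 200 Mb, while the Prdm9 het median of the first 2 Mb, 7.96 RPM, is below the 9.39 RPM at 20 to 30 Mb.

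The number of proximal sites ran from 10 on chromosome 3 to 73 on chromosome 16, with a median of 35. Taking each autosome by itself, the proximal median was above the interior median on 16 of 19 autosomes in B6, 15 in Ewsr1 CKO and 12 in Prdm9 het. For H3K4me3 it was below on 15. All 3 DMC1 columns were higher at proximal sites on 12 autosomes, and all 3 were lower on chromosomes 12, 16 and 17. The log2 difference in B6 had a median of 0.47 over autosomes and an SD of 0.46 (n = 19 autosomes, which are not replicates of a genotype).

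Chromosome 13 had the largest B6 difference, with a proximal median of 83.0 RPM against 37.0 RPM in its interior. Ewsr1 CKO there had 75.1 against 46.6 RPM and Prdm9 het 16.1 against 7.50 RPM. On chromosomes 5 and 9 the excess was largest in Ewsr1 CKO, with 126 against 53.4 RPM and 100.2 against 45.9 RPM. Chromosome 17 was the opposite extreme, with 34.5 against 49.5 RPM in B6, 28.6 against 61.1 RPM in Ewsr1 CKO and 4.19 against 11.9 RPM in Prdm9 het. The H3K4me3 median was also lowest relative to the interior there, 0.521 against 0.883 RPM. The proximal H3K4me3 median was higher than that of the interior on chromosome 16 (0.945 against 0.814 RPM), chromosome 18 (0.875 against 0.757 RPM) and chromosome 19 (1.17 against 0.775 RPM).

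**Figure D2:**
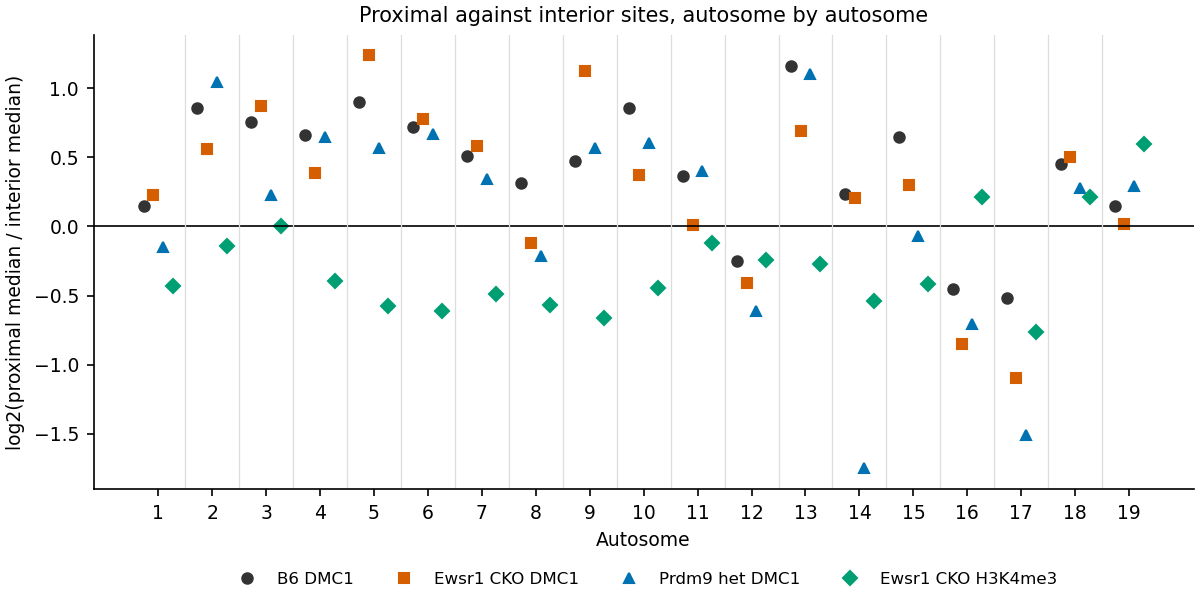
Log2 of the proximal over the interior median for each autosome, for the DMC1 columns of B6, Ewsr1 CKO and Prdm9 het and for H3K4me3 in Ewsr1 CKO. B6 DMC1 lies above 0 on 16 of 19 autosomes and H3K4me3 below 0 on 15, and Prdm9 het on chromosome 14 is the lowest point at −1.75.

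H3K4me3 was low at proximal sites for the DMC1 they carried, as it was at the sites 10 to 20 Mb from the first listed start. DMC1 per H3K4me3 in Ewsr1 CKO was taken as log2(DMC1 + 1) minus log2(H3K4me3 + 0.1), both in RPM, and set to 0 at the autosomal median. Its median was 0.43 at proximal sites and −0.04 in the interior, a difference of 0.47 (1.39-fold), while the sites at 10 to 20 Mb had 0.51 and those within 10 Mb of the last listed end −0.46. The median H3K4me3 at 10 to 20 Mb, 0.733 RPM, was also no higher than that of the proximal sites. Of the proximal sites 415 (63.0%) were above 0, against 48.7% in the interior. The proximal value was above the interior value on 16 of 19 autosomes. It ranged from 0.91 below the interior on chromosome 16 to 1.76 above it on chromosome 9, so the size of the difference varied among autosomes by more than its pooled value.

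The lower H3K4me3 was seen at every level of DMC1. In the 4 strength ranges set by the autosomal quartiles, from weakest to strongest, the proximal H3K4me3 median was 0.871, 0.814, 0.726 and 0.795 of the interior median. Sites with B6 DMC1 at or above the autosomal median but H3K4me3 below its own made up 191 of 659 proximal sites (29.0%) and 830 of 6145 interior sites (13.5%). H3K4me3 and DMC1 nonetheless rose together across proximal sites. With H3K4me3 of Ewsr1 CKO, Spearman's rho over 659 sites was 0.492 (B6 DMC1), 0.504 (Ewsr1 CKO DMC1) and 0.508 (Prdm9 het DMC1). The interior values were 0.541, 0.481 and 0.569. These coefficients are across sites, which share libraries and neighbourhoods and are not replicates.

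Fewer proximal than interior hotspots coincided with a site of the authors' separate H3K4me3 list. That list is labelled as common to B6 and Ewsr1 CKO, so an overlap is membership of it. By at least 1 bp, 294 of 659 proximal sites (44.6%, Wilson 95% interval 40.9 to 48.4%) shared sequence with a listed H3K4me3 site, against 3510 of 6145 interior sites (57.1%, 55.9 to 58.4%). The share at 10 to 20 Mb, 47.7%, was close to the proximal one. The intervals cover counting error only. The gap was present in each of the 4 strength ranges, from 13.8% against 32.3% among the weakest to 76.0% against 82.3% among the strongest sites. The proximal share was below the interior share on 15 of 19 autosomes. Chromosome 17 was at one end, where 0 of the 20 proximal sites overlapped, which allows a share of up to 15%, and 59.3% of the interior sites did. A site outside the list can still carry the mark: the proximal sites with the highest and second highest H3K4me3, on chromosomes 17 and 7, overlapped no listed site. Chromosome 19 was at the other, with 73.7% against 46.1%.

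Proximal hotspots with a listed H3K4me3 site were the stronger ones, with a B6 median of 99.5 RPM against 42.3 RPM for the 365 without. The same split in the interior was 66.4 against 29.2 RPM, so at the median the proximal sites had more B6 DMC1 with and without a listed mark. At the 294 listed H3K4me3 sites that overlapped proximal hotspots, H3K4me3 in Ewsr1 CKO had a median of 0.952 RPM, 0.909-fold the 1.05 RPM of the interior. H3K36me3, the other mark deposited by PRDM9, had a median of 1.25 RPM (quartiles 0.944 and 1.92) against 1.504 RPM (quartiles 1.02 and 2.30), or 0.831-fold. H3K36me3 exceeded H3K4me3 at 230 of these 294 sites (78.2%), close to the 77.8% of the interior. Per kb of site width the log2 differences shrank to −0.15 from −0.27 for H3K36me3 and to −0.06 from −0.14 for H3K4me3.

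For the comparison of genotypes the DMC1 columns were scaled to the B6 autosomal total, and each log2 ratio, on the log2(RPM + 1) scale, was expressed relative to the median of all autosomal sites. A negative value therefore means that the ratio between the genotypes was lower at that site than at the typical site, not a fall in DMC1 as such. Sites called higher or lower than the typical site are so in this ratio. The 3 pairs of genotypes share columns, so their results are not independent of each other.

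In Ewsr1 CKO against B6 the proximal sites sat slightly low, with few strong changes. The median ratio was −0.08 (quartiles −0.32 and 0.19) against 0.02 in the interior, a difference of −0.09. Below 0 were 390 of 659 proximal sites (59.2%) and 48.3% of interior sites. At least 1.5-fold higher than the typical site were 51 proximal sites (7.74%), where the background over all autosomal sites was 11.4%. At least 1.5-fold lower were 43 (6.53%), with a background of 6.28%. At 2-fold, 14 were higher and 6 lower, with backgrounds of 2.57% and 0.869%. The share of higher sites was thus below the background and the share of lower sites close to it, while 22.6% of the sites within 10 Mb of the last listed end were lower. The proximal median was below the interior median on 14 of 19 autosomes, from −0.35 on chromosome 15 to 0.45 above on chromosome 3.

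The B6 and Ewsr1 CKO values were whole multiples of 0.129 and 0.246 RPM, to within 0.05 of a step at 100% of the sites. If 1 such step was 1 read, the median proximal site held 482 reads in B6 (48 to 9284) and 274 in Ewsr1 CKO (23 to 3187). Read sampling would then give the log2 ratios a median standard error of 0.11, while the ratios spread by 0.38 (interquartile range rescaled to an SD). On that reading 57.5% of proximal sites and 55.3% of interior sites differed from the typical ratio by more than read sampling. This covers counting error only, takes reads as independent and says nothing of variation between animals or preparations, so it shows no effect of genotype. The Prdm9 het and H3K4me3 values were not such multiples, with only 10.2% and 10.4% of sites within 0.05 of the step tried. Whether those columns were made in the same way as the B6 column is not stated. The depth of the Prdm9 het and histone columns is unknown.

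In Prdm9 het against B6 the proximal sites were lower, and chromosome 14 accounted for a large part of the strong changes, with 45 of 152 lower sites. The median ratio was −0.14 (quartiles −0.54 and 0.19) against 0.02 in the interior, a difference of −0.16, and 402 of 659 sites (61.0%) were below 0. At least 1.5-fold lower were 152 proximal sites (23.1%, Wilson 95% interval 20.01 to 26.4%), where the background was 13.5%. At least 1.5-fold higher were 48 (7.28%), with a background of 11.7%. At 2-fold, 13 were higher (background 2.62%) and 77 lower (background 4.96%), of which 44 were on chromosome 14. Without that chromosome 33 of 610 (5.41%) were 2-fold lower. Leaving chromosome 14 out, 107 of 610 proximal sites (17.5%) were at least 1.5-fold lower and the median differed from the interior by −0.13. The backgrounds of 4.96% and 13.5% still include chromosome 14, so they are no matched reference for these shares. The sites within 10 Mb of the last listed end were similar, with 18.1% lower and a difference of −0.10. The proximal median was below the interior median on 15 of 19 autosomes. The first 2 Mb had the lowest median ratio, −0.29, or −0.25 without chromosome 14. The further steps of 2 Mb had −0.11, −0.09, −0.01 and −0.13, so the ratio did not rise steadily with distance.

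Chromosome 14 stood apart. Its first listed site begins at 8025736, whereas the first sites of the other 18 autosomes begin between 3050391 (chromosome 5) and 4464396 (chromosome 3). Its 49 proximal sites had medians of 49.6 RPM (B6) and 58.9 RPM (Ewsr1 CKO), both above their interior medians of 42.2 and 51.1 RPM. In Prdm9 het the median was 2.06 RPM, against 6.94 RPM in the interior of the same chromosome, or 0.297-fold. That interior was itself low in Prdm9 het over B6, with a median ratio of −0.31, the lowest interior value of the 19 autosomes. Of the 49 sites 45 (91.8%) were at least 1.5-fold lower in Prdm9 het than the typical site, and 44 at least 2-fold lower (background 4.96%). The median ratio was −2.03, with a range from −3.57 to 1.84, and the first 16 sites in a row were all lower. Among the other autosomes the share of lower proximal sites ran from 2.70% (1 of 37) on chromosome 8 to 46.2% (6 of 13) on chromosome 7.

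The chromosome 14 sites that were lower included weak and strong ones. The strongest, chr14:14738785-14741447 in Slc4a7, a bicarbonate transporter gene, had 502 RPM (B6), 460 RPM (Ewsr1 CKO) and 12.2 RPM (Prdm9 het), a ratio to B6 of −2.92. The site chr14:12833634-12836387 had 332, 339 and 18.3 RPM, a ratio of −1.75. Both were chosen after their values were seen, for their DMC1 level. In Ewsr1 CKO against B6 0 of the 49 were 1.5-fold lower (Wilson 95% interval 0 to 7.27%, background 6.28%) and 2 were higher (4.08%, interval 1.13 to 13.7%, background 11.4%). Both intervals include the background. The median there was −0.03 (range −0.49 to 0.71), against −2.03 in Prdm9 het. The cause of the low Prdm9 het values was not tested.

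The remaining 4 sites of chromosome 14 lay among the lower ones. At chr14:13667875-13670124 DMC1 was 64.8 RPM (B6), 84.7 RPM (Ewsr1 CKO) and 43.8 RPM (Prdm9 het), a ratio to B6 of 1.84. The next listed site, chr14:13933945-13936572 in Gm11100, had 46.4, 50.8 and 29.9 RPM, a ratio of 1.77. Both are among the highest Prdm9 het ratios of all proximal sites, and they sit beside sites with ratios of −2.61 on one side and −2.26 on the other. The other 2, chr14:10649242-10651350 in Fhit and chr14:17644447-17645910, were near the typical ratio, at 0.15 and 0.13. From 10 to 20 Mb beyond the first listed start, 25 of the 47 chromosome 14 sites were still at least 1.5-fold lower, with a median of −0.59.

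**Figure D3:**
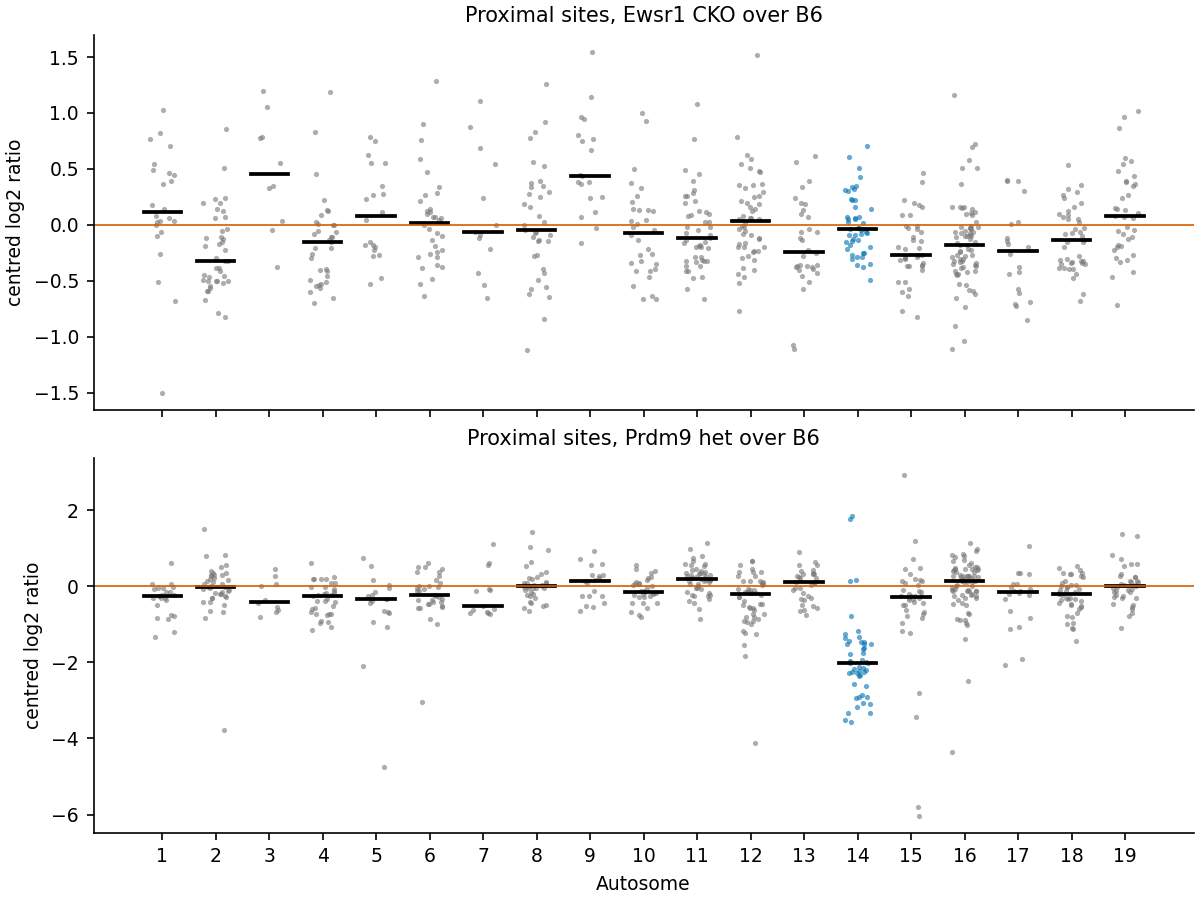
Log2 ratio of each proximal site relative to the autosomal median, by autosome, for Ewsr1 CKO over B6 (top) and Prdm9 het over B6 (bottom), with black bars at the median of each autosome and chromosome 14 in blue. Chromosome 14 has a median of −2.03 in the lower panel and −0.03 in the upper panel.

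Ewsr1 CKO set directly against Prdm9 het gave a small pooled difference that depended on the setting. The median ratio was 0.04 at proximal sites and 0.01 in the interior. Without chromosome 14 the difference changed sign, from 0.03 to −0.01, and it was 0.08 without chromosome 2 or without chromosome 16. In the 4 strength ranges, from weakest to strongest, it was 0.06, −0.06, 0.12 and 0.24. Single autosomes differed by more than the pooled value, from −0.40 on chromosome 2 to 0.62 on chromosome 3, 0.58 on chromosomes 5 and 9 and 1.73 on chromosome 14. At least 1.5-fold higher in Ewsr1 CKO were 142 proximal sites (21.5%, background 16.5%), or 97 of 610 (15.9%) without chromosome 14. At least 1.5-fold lower were 85 (12.9%, background 15.4%). At 2-fold, 80 were higher (background 6.24%) and 16 lower (background 4.39%). These 2-fold counts include chromosome 14, which held 45 of the 142 higher sites at 1.5-fold, and were not split. All the backgrounds include it too.

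Single hotspots show the range of these patterns. The strongest proximal site, chr12:4972671-4976035 in Atad2b, a gene for a bromodomain ATPase, had 1194 RPM in B6, the second highest autosomal value in the list. It had 782 RPM (Ewsr1 CKO) and 127 RPM (Prdm9 het), and its ratios to B6 were −0.77 (read sampling error 0.030) and −0.81. The next strongest, chr2:7636305-7639222, had 706, 605 and 99.1 RPM and lies in no annotated gene. The site chr1:11545196-11547863 in A830018L16Rik had 488, 544 and 93.9 RPM. All 3 carried more than the median H3K4me3, with 1.71, 1.26 and 1.73 RPM. By contrast chr6:9533478-9536243 had 495, 553 and 78.8 RPM of DMC1 with 0.830 RPM of H3K4me3, and its DMC1 per H3K4me3 of 3.39 was the highest among proximal sites with strength no lower than the autosomal median. It was followed by chr5:11949286-11951957 (3.24) and chr8:5983968-5987039 (3.05), with 0.556 and 0.487 RPM of H3K4me3.

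At the other end stood sites with much H3K4me3. The highest H3K4me3 was at the first listed site of chromosome 17, chr17:3081051-3082895 in the pseudogene Pisd-ps2, with 6.66 RPM and 21.1 RPM of DMC1 in B6. It was followed by chr7:12965857-12968129 in the zinc-finger gene Zfp324, with 5.54 RPM of H3K4me3 and 25.2 RPM of DMC1. Next came chr13:12517264-12519808 in Edaradd, an adaptor of ectodysplasin signalling, with 3.50 and 94.1 RPM. Over all 659 sites the lowest DMC1 per H3K4me3 was −4.40, at the Pisd-ps2 site, and the Zfp324 site had −2.77. Both were weaker in DMC1 than the limit used for ranking, above which the Edaradd site was the lowest, at −1.35. The site chr11:4972201-4974805 in Ap1b1, a subunit of a clathrin adaptor, followed with −1.12.

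Of the 375 proximal sites with strength no lower than the autosomal median, the one with the highest ratio of Ewsr1 CKO to B6 was at chr9:6458411-6461574 in Pdgfd, a growth factor gene. DMC1 there was 36.1 RPM (B6), 120 RPM (Ewsr1 CKO) and 12.9 RPM (Prdm9 het), a ratio of 1.55 with a read sampling error of 0.11. The next were chr6:10249943-10251843 (1.28) and the first listed site of chromosome 3, chr3:4464396-4467251 (1.20), with 36.9 RPM (B6) and 96.2 RPM (Ewsr1 CKO). They were followed by chr4:4941576-4944354 in Gm18933 (1.19) and chr9:11578277-11580881 (1.14). The lowest was chr15:7948560-7951065 in Wdr70, with 134 RPM (B6) and 84.0 RPM (Ewsr1 CKO), a ratio of −0.83. A pair of sites in Celf2 on chromosome 2, chr2:6795278-6798114 and chr2:6859436-6861796, followed with −0.82 and −0.79. Then came the Atad2b site and chr15:7609140-7611770, both at −0.77. The limit on strength uses these same columns, so the B6 levels of the sites it leaves at each end are partly set by it. The chromosome 6 and 3 sites and the last chromosome 9 site passed it through their Ewsr1 CKO values. Over all 659 proximal sites the lowest ratio was −1.50, at the weaker site chr1:12855274-12857082.

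The Prdm9 het ratios were ranked over the same 375 sites. The limit on strength includes the Prdm9 het column, so a low ratio passed only with high B6 and Ewsr1 CKO values, and a high ratio could pass through Prdm9 het itself. The lowest was at chr15:12002766-12005679, where DMC1 was 165 RPM (B6), 142 RPM (Ewsr1 CKO) and 0.283 RPM (Prdm9 het), a ratio to B6 of −6.03. Without the scaling it was −4.75, above the −5.27 of the C9 site named next, and with no pseudocount −6.77, so which of the pair is lowest depends on the scaling. At chr15:6478354-6481444 in C9, a complement gene, it was 395, 410 and 1.13 RPM, a ratio of −5.80. The sites chr5:5114077-5116783 in Cdk14 (−4.76), chr16:5843668-5846731 (−4.35) and chr12:10258579-10260957 (−4.13) followed. The chromosome 16 site had 495 RPM in B6, 4.36 RPM in Prdm9 het and 3.41 RPM of H3K4me3 in Ewsr1 CKO. In all 25 proximal sites (3.79%) were below 1 RPM in Prdm9 het, against 2.54% of interior and 2.46% of autosomal sites, and 14 of the 25 lay on chromosome 14. Without that chromosome the proximal share was 1.803% (11 of 610). The interior and autosomal shares still include chromosome 14, so they are no matched reference for it. The highest ratio among these sites, 2.92, was at chr15:6734738-6737336 in Rictor, a TORC2 subunit gene, with 29.5, 37.1 and 42.8 RPM. It lies 3.44 Mb from the first listed start and the C9 site 3.19 Mb, so a very high and a very low Prdm9 het ratio were near neighbours. The Rictor site and the Gm11100 site on chromosome 14 passed the limit through their scaled Prdm9 het values of 225 and 157 RPM. A ratio of 1.49 on chromosome 2, at chr2:11330917-11333123, fell outside the ranking for its lower strength. The chromosome 14 pair came next, then chr8:10832803-10835448 (1.42) and chr19:10051270-10053593 in Fads3, a fatty acid desaturase gene (1.32).

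Proximal hotspots lay in genes about as often as interior ones. By gene spans, 428 of 659 (64.9%) overlapped an annotated gene and 364 (55.2%) a protein-coding gene, against 62.3% and 54.2% in the interior. The annotation table gives gene spans only, so exons and introns were not told apart. Proximal sites in coding genes had more B6 DMC1 than those outside, with medians of 67.7 and 52.3 RPM, and more H3K4me3, 0.806 and 0.667 RPM. Their DMC1 per H3K4me3 was 0.39 inside and 0.46 outside, both above the interior values of −0.16 and 0.13.

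The proximal sites fell in 245 coding genes, 10 of which held at least 4. Snx29, a sorting nexin gene (chr16:11322861-11759095), held 8, with 6.43 to 217 RPM in B6 and a median Prdm9 het ratio of 0.40. Fhit, a gene spanning a common fragile site (chr14:9550092-11162061), held 6, with medians of 41.2 RPM (B6), 43.5 RPM (Ewsr1 CKO) and 2.28 RPM (Prdm9 het). Cadps, a vesicle-exocytosis gene further along chromosome 14, held 4, with 47.1, 57.8 and 1.91 RPM. In Frmd4a on chromosome 2, a gene for a scaffold protein, the 6 sites had ratios of Ewsr1 CKO to B6 from −0.67 to −0.50, and 2 of them passed the 1.5-fold limit. The 5 sites in Celf2, an RNA-binding splicing regulator gene on the same chromosome, had ratios from −0.82 to −0.41, with B6 values of 51.7 to 277 RPM, and 2 passed the limit. The median over all 41 proximal sites of chromosome 2 was −0.32, and 5 of them passed it, against a background of 6.28%. The 6 sites of Klhl29 on chromosome 12 were mostly weak, with a B6 median of 15.6 RPM, although a pair of them had 103 and 121 RPM. Rbfox1, Tns3, Crebbp and Ryr2 held the other groups of 4 or 5, with B6 medians from 51.8 RPM in Ryr2 to 118 RPM in Rbfox1. Sites in the same gene are neighbours and do not count as separate evidence about that gene.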

How the data were processed

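Per the submitters' processing notes, mm10, BWA 0.5.10 and Trimmomatic 0.32 were used, with no role or order stated. The authors deposited 1 table of DMC1 sites and 1 of H3K4me3 sites with values in RPM, scaled to library size per the file headers. The RPM denominator and whether a column pools its replicates are not stated. The 6 columns of groups with samples here were used, and 4 columns were not. Of 5787 lines in the H3K4me3 table, 220 repeated an interval and were averaged, leaving 5567 sites.

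DMC1 columns were scaled to the B6 autosomal total. Log2 ratios used a pseudocount of 1 RPM (DMC1) or 0.1 RPM (H3K4me3), which understates changes of low sites, and were centred on the autosomal median. Calls used 1.5-fold. A per-site model was planned for columns holding single samples. As each column is 1 value per group, values were described without p-values. Sequence content around site middles was planned for the case that a genome was given and was not analysed here. Overlaps used bedtools 2.31.1, plots matplotlib 3.10.9 and other steps pandas 2.3.3, scipy 1.17.1 and numpy 2.4.6 under Python 3.11.15. The functions were tested on simulated data.

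Named sites were the 5 strongest, the 5 highest and 5 lowest ratios to B6 of each genotype, the 3 highest H3K4me3 values, the 3 highest and 3 lowest DMC1 per H3K4me3 and the first sites of chromosomes 16 and 3. Ratios were ranked among sites with strength no lower than the autosomal median. The sites of chromosome 14, the Slc4a7 site, the promoter windows and the genes were chosen after their values were seen. The first site of chromosome 16, chr16:3980589-3982944 in Slx4, had DMC1 of 34.6 RPM (B6), 42.7 RPM (Ewsr1 CKO) and 4.55 RPM (Prdm9 het). The proximal class and the measures were chosen with earlier results of these data known. Gene spans and promoter windows came from RefSeq tables of GRCm38.p6.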

Additional observations from a re-analysis of the deposited data

How the results depend on the processing

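Of 434 recomputed values of 23 summary results, 1 reversed and 20 moved, and the causes were not tested. The difference of Ewsr1 CKO over Prdm9 het (0.0299, within its tolerance of 0.0617) also changed sign, to −0.0062 without chromosome 14, and is not counted as reversed. Without sites below the lower quartile of strength the log2 difference of proximal and interior medians was 0.249 for B6, 0.126 for Ewsr1 CKO, −0.0546 for Prdm9 het (reversed) and −0.357 for H3K4me3, and the H3K4me3 overlap was 52.2% proximal and 65.8% interior. With a 5 Mb limit Prdm9 het over B6 differed by −0.243 and Ewsr1 CKO over Prdm9 het by 0.102. Within autosomes H3K4me3 differed by −0.416, Prdm9 het over B6 by −0.207 and DMC1 per H3K4me3 by 0.672. Within the 4 strength ranges the last was 0.310 and Ewsr1 CKO over Prdm9 het 0.0983. Per kb, H3K36me3 differed by −0.154. At 2-fold, 14 sites were higher and 6 lower for Ewsr1 CKO over B6, 13 higher and 77 lower for Prdm9 het over B6, and 80 higher and 16 lower for Ewsr1 CKO over Prdm9 het. Leaving out each autosome gave 0.438 to 0.606 for DMC1 per H3K4me3. It gave 111 (without chromosome 14) to 151 lower sites in Prdm9 het over B6, ratios being centred anew. Leaving autosomes out of the counts was added after seeing the data. Log2 ratios of 20 named sites reversed in 0 of 60 recomputed values and moved in 20, all of them Prdm9 het ratios. The tolerance was the read sampling error, which held both columns for Ewsr1 CKO ratios but B6 alone for Prdm9 het ratios. The rule was therefore stricter for Prdm9 het. The chr15 sites starting at 12002766 and 6478354 had −4.75 and −5.27 as deposited and −6.77 and −6.03 with no pseudocount, so the lowest depends on scaling, and the Cdk14 site had −3.70 as deposited. No paired analysis was possible because each column stands for a whole group without replicate numbers, so a replicate block and leaving out replicates were not run. Unknown depth limits the low Prdm9 het values.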
